A study of Mus musculus with 48 samples.

Results

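Subtotal nephrectomy (Nx), an operation that removes part of the kidney tissue, was compared with a sham operation in 2 mouse strains, FVB and C57BL/6 (B6). The quantity described here is the strain difference of the surgery effect after 2 days, that is, (FVB Nx minus FVB sham) minus (B6 Nx minus B6 sham), on the log2 scale. A positive value is called higher in FVB and a negative value lower in FVB. It was computed for all 13174 genes tested, from 16 of the 48 arrays of the series. The 4 groups of day 2 were FVB Nx, FVB sham, B6 Nx and B6 sham, with 4 animals each. The other 32 arrays hold the same 4 groups at days 28 and 53. All mice were 9 weeks old when operated on, and each array holds RNA of the whole kidney of 1 mouse. Per the series' design text, FVB mice are prone to kidney lesions and C57BL/6 mice are not. Sex, substrain and the extent of the removal are not given in the sources used here. Values are listed below by mouse number, which is 1, 2, 4 and 5 for FVB Nx and for both sham groups, and 3, 5, 9 and 11 for B6 Nx. Nothing in the labels ties an Nx mouse to a sham mouse, so p-values measure the spread between animals. Errors after ± are standard errors (SE) unless stated, and adjusted p-values are those of limma over all genes tested.

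Cells that meet foreign or misplaced nucleic acids make type I interferons. These bind a receptor common to almost all cells, whose kinases activate STAT2. With IRF9 it belongs to a complex that binds the interferon response element in promoters and switches on a large group of antiviral genes, among them those for IRF7, the OAS and IFIT proteins and USP18, which dampens the receptor again. In an injured kidney, tubule cells lose transport functions, make injury keratins and chemokines and enter the cell cycle, while monocytes from the blood settle between the tubules.

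The deposited values are on a log2 scale with a common lowest value of 2.20, at which 32.1% of all values lie. A value is called at the floor when it does not exceed 2.28, the limit of the expression filter, or when its probe set repeats exactly the same number on at least 4 of the 48 arrays. Where at least 3 of the 4 animals of a group lie at the floor, the true difference can exceed or fall short of the printed one. Kidney markers were present in every group: Lrp2, the endocytic receptor of the proximal tubule, lay between 13.0 and 14.2 in the group means, and Umod of the loop of Henle between 14.8 and 15.3. On all 48 arrays the 3 probe sets of Xist read at least 8.63, and those of the Y-linked genes Eif2s3y, Kdm5d and Uty at most 2.22. Transcripts of another tissue, the pancreas, set Nx animals apart within both strains. The mean of 18 pancreas genes was 2.80, 9.58, 13.8 and 14.6 in FVB Nx and 2.81, 7.33, 11.7 and 12.8 in B6 Nx, against 2.87 to 3.04 in the sham animals, so 1 Nx animal of each strain was without them. Their median difference between strains was 1.32 and 0 of the 18 passed the test (limma, with 1 of 18 at an unadjusted p under 0.05). Other tissues were seen too. The group mean of Ucp1, a brown fat gene, was 7.37 in FVB sham, 8.40 in B6 sham, 4.33 in FVB Nx and 3.22 in B6 Nx. The adrenal gene Cyp11b1 reached 7.58 in B6 sham and at most 2.20 in the other groups. The part of fat and adrenal tissue was not tested. The probes of Gapdh, whose gap between the transcript's ends widens as RNA breaks down, differed by 0.227 to 0.451 in FVB Nx, 0.235 to 0.417 in B6 Nx and 0.0822 to 0.191 in sham. The same gap of Actb was not wider after Nx, at 2.04 to 2.34 in FVB Nx, 2.04 to 2.38 in B6 Nx and 1.95 to 2.57 in sham. With the pancreas mean as a covariate 650 genes passed and with the Gapdh gap 596, beside 581 without either, and their part in the differences was not tested further.

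In all, 299 genes were higher in FVB (2.27% of the genes tested) and 282 lower (2.14%), with limma and Benjamini-Hochberg adjusted p under 0.05. The higher genes differed more: their median was 1.22 and 182 exceeded 1, against -0.68 and 72 beyond -1 among the lower ones, while the median of all genes was -0.0097. A difference of 1 means that surgery changed the level 2 times more, as a ratio, in one strain than in the other. The effect of each Nx animal was also taken as its value minus the sham mean of its strain. For 278 of the 299 higher genes all 4 FVB animals exceeded all 4 B6 animals, as did 10.2% of all genes tested. For 246 of the 282 lower genes they all fell below, as did 11% of all genes. No group lay at the floor in 211 of the higher and 234 of the lower genes. The count moved with single animals. It was 343 without FVB Nx mouse 2, 951 without FVB Nx mouse 5 and 875 without B6 Nx mouse 11, and 324 when only the 16 arrays of day 2 were fitted. For the lower genes alone, the count was 138, 524 and 509 without these 3 animals in turn and 157 without B6 sham mouse 1.

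**Figure D1:**
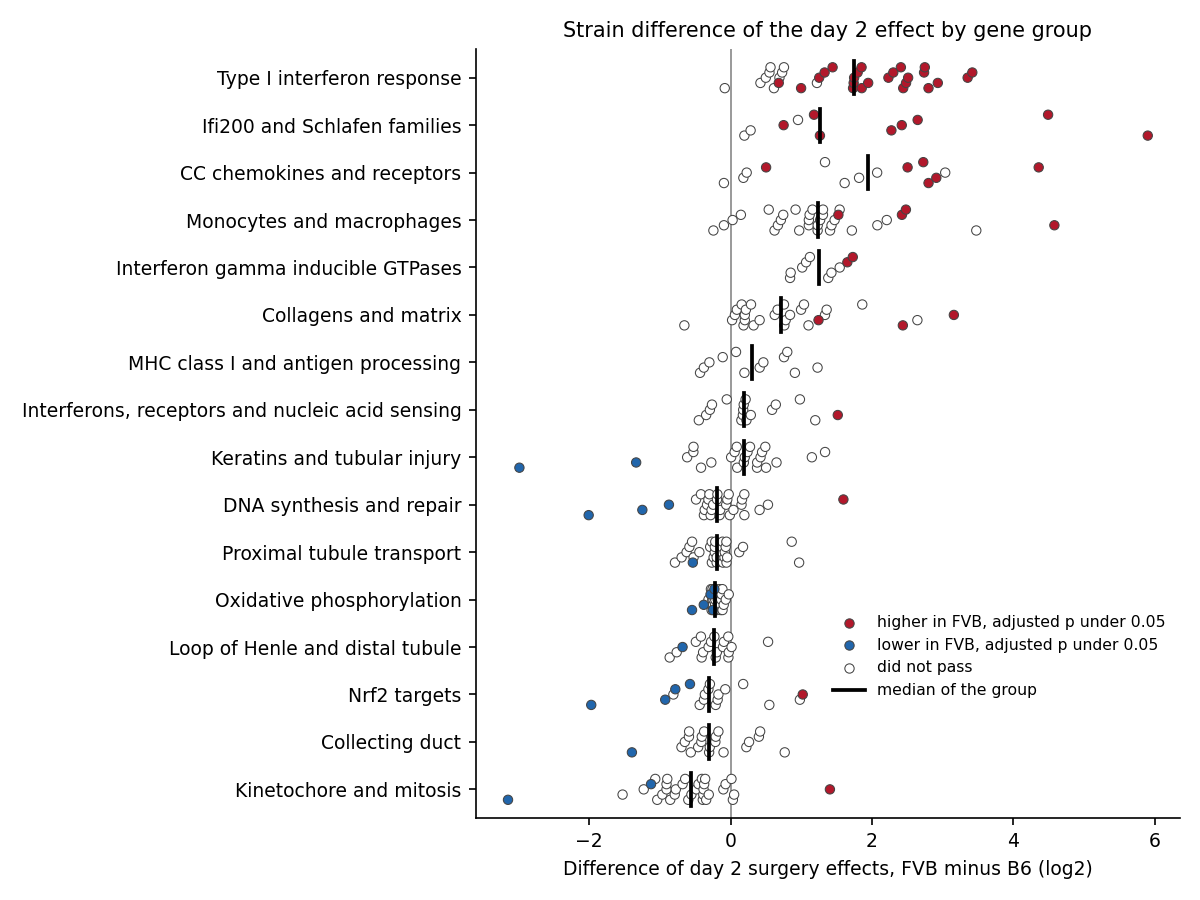
Strain difference of the day 2 surgery effect (x axis, log2, FVB minus B6) for each measured member of 16 gene groups (rows). Each point is 1 gene, filled red or blue where it passed at adjusted p under 0.05 and white where it did not, and the black bar is the median, which runs from 1.95 for CC chemokines and 1.75 for the interferon response to -0.55 for kinetochore and mitosis.

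The type I interferon response was the group with the most genes higher in FVB. Of 40 genes listed, 34 were measured, and 24 of them (70.6%, against 2.27% of all genes tested) were higher in FVB, 0 lower, and 10 did not pass. The median was 1.75, and 33 of 34 members lay above 0. The exception was Ifi44l at -0.082, with both Nx groups at the floor. The animals' effects did not overlap, with FVB above, in 29 of the 34, as in 10.2% of all genes tested. In 1 of the 34 FVB lay below without overlap, as in 11% of all genes. The mean of the 34 genes was 7.97, 8.25, 7.73 and 7.62 in FVB Nx and 6.38, 6.42, 6.32 and 6.59 in B6 Nx. In sham it was 5.38, 5.95, 6.20 and 5.53 in FVB and 5.90, 5.99, 5.91 and 6.09 in B6. All 4 FVB Nx animals lay above every other animal, and FVB sham mice 2 and 4 above FVB sham mice 1 and 5. The Nx animals without pancreas transcripts, FVB Nx mouse 1 and B6 Nx mouse 3, read 7.97 and 6.38. They are 1 animal per strain, and the part of the pancreas was not tested. The count of higher members was 23 to 27 when each animal was left out in turn, and 24 with the pancreas mean or with the Gapdh gap as a covariate.

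To show what stands in front of these genes, the RefSeq promoter windows (GRCm38.p6, 250 bases before to 50 bases after a gene's start) were searched on both strands for the core of the interferon response element, which is GAAA, any 2 bases, and GAAA again. A window was given for 10626 of the genes tested, and 408 of these (3.84%) held the motif. Of the 34 measured interferon genes, whether they passed or not, 25 had a window and 11 held the motif. Among the 24 higher interferon genes, 16 had a window and 8 held the motif. Among the other genes higher in FVB it was found in 21 of 210 (10.0%), and among the genes lower in FVB in 12 of 236 (5.085%). These shares are descriptions, and a match is not a shown site. The windows of 4 genes of the list that were higher in FVB are printed below because they hold the motif singly, as a pair, or overlapping. They were chosen after their values were seen. Capitals mark the motif, in either strand's reading. Ifit1 lies at chr19:34640639-34640938 on the plus strand with the motif at -104 and -85 from the start, read on the reverse strand. Ifit3 lies at chr19:34583279-34583578 (plus) with reverse matches at -156 and -122. Stat2 lies at chr10:128270248-128270547 (plus) with 1 reverse match at -222. Oas1a lies at chr5:120907476-120907775 (minus), where forward matches at -20 and -14 overlap.
Ifit1: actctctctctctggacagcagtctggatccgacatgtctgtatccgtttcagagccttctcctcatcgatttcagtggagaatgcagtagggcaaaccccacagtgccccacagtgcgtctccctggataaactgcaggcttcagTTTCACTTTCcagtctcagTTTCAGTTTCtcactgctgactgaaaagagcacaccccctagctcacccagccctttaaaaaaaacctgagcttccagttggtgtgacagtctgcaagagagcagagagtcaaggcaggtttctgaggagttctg
Ifit3: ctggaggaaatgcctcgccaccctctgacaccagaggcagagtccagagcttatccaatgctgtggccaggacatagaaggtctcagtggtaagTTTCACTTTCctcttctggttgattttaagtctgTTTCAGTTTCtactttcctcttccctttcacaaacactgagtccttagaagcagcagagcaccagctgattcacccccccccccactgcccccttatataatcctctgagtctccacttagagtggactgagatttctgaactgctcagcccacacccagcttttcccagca
Stat2: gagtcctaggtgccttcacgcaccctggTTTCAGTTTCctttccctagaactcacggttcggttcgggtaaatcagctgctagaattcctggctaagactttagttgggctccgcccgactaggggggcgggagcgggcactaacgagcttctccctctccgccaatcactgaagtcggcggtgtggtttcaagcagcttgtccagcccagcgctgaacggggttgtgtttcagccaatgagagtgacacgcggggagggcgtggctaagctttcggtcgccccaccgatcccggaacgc
Oas1a: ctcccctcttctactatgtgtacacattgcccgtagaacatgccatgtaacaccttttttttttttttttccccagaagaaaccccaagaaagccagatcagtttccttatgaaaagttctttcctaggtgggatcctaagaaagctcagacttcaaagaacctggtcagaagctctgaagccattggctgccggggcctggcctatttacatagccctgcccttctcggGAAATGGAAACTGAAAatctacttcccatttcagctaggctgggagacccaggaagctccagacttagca

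Stat2, a subunit of the factor that binds this element, read 4.77, 4.88, 4.77 and 4.97 in FVB Nx and 3.27, 3.32, 3.27 and 3.24 in B6 Nx. The sham values were 3.23, 3.87, 3.24 and 3.23 in FVB sham and 3.24, 3.27, 3.18 and 3.37 in B6 sham. FVB Nx stood apart from the other 3 groups, which overlapped, and the difference of effects was 1.44 ± 0.14 (adjusted p = 1.4e-09). Irf7, the factor that carries the response onward by inducing more interferon, read 5.73, 5.02, 4.92 and 4.53 in FVB Nx and 2.89, 2.21, 2.21 and 2.95 in B6 Nx, with 2.21, 2.20, 2.21 and 2.20 in FVB sham and 2.21, 2.21, 2.21 and 2.29 in B6 sham. Both sham groups lay at the floor, and so did B6 Nx mice 5 and 9, so the true difference can be larger or smaller than the measured 2.51 ± 0.21 (adjusted p = 7.59e-11). Irf9, another subunit of the complex, was 0.76 ± 0.42 (adjusted p = 0.337) and did not pass.

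The genes whose promoters are printed were all higher in FVB, and so were several effectors of the response. Ifit1, which binds RNA lacking the host's cap marks, read 7.98, 8.23, 7.83 and 7.92 in FVB Nx and 4.93, 5.18, 4.91 and 5.62 in B6 Nx, and 3.00, 4.51, 4.97 and 3.11 in FVB sham and 4.48, 4.41, 4.12 and 4.96 in B6 sham. Its difference was 3.42 ± 0.54 (adjusted p = 5.95e-05), the highest of the list. Ifit3 was 1.95 ± 0.40 (adjusted p = 0.00185) and Oas1a, a synthase that arms an RNase against double-stranded RNA, 2.74 ± 0.43 (adjusted p = 4.19e-05). Usp18, the brake on the receptor, was 3.36 ± 0.52 (adjusted p = 3.94e-05). The GTPase Mx1 was 2.93 ± 0.35 (adjusted p = 2.16e-07) with FVB sham at the floor, so it can be larger. Among the RNA sensors, Ifih1 was 1.73 ± 0.24 (adjusted p = 5.49e-06) and Dhx58 2.44 ± 0.30 (adjusted p = 3.87e-07), whereas Ddx58 at 0.73 ± 0.26 (adjusted p = 0.0951) did not pass. Oas2 read 4.96 to 6.32 in FVB Nx, 3.19 to 3.83 in B6 Nx and 3.18 to 3.40 in sham, a difference of 2.23 ± 0.25 (adjusted p = 1.07e-07). Its B6 sham group counts as at the floor, so the true difference can be smaller.

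**Figure D2:**
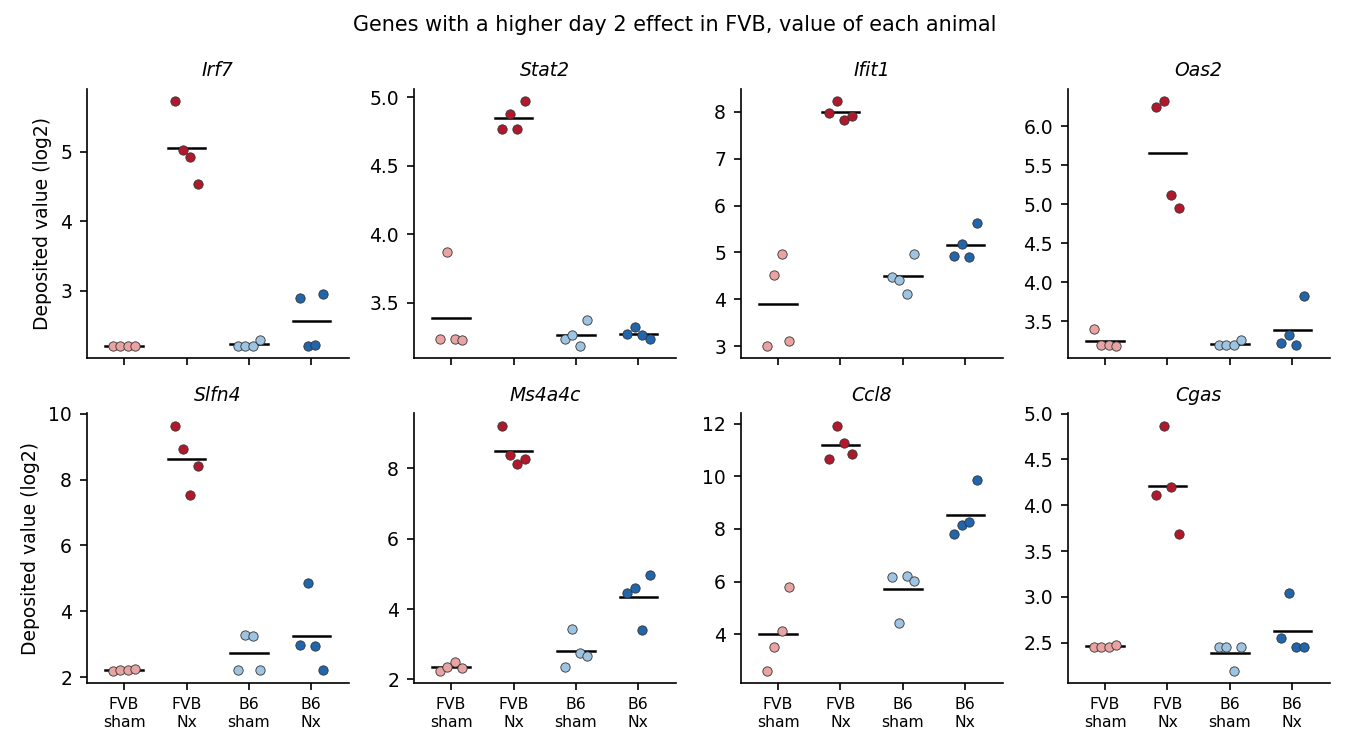
Deposited log2 values (y axis) of 8 genes higher in FVB, 1 point per animal, in FVB sham, FVB Nx, B6 sham and B6 Nx at day 2 (x axis, 4 animals each); the bar is the group mean. In each panel the 4 FVB Nx points lie above all B6 Nx points, for Slfn4 at 7.53 to 9.64 against 2.22 to 4.86.

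Of the genes that sense nucleic acids or receive the interferon signal, 1 passed. Of 24 listed, 17 were measured, 1 was higher in FVB (5.88%, against 2.27% of all genes tested) and 0 lower, with a median of 0.19. That gene was Cgas, the sensor of DNA in the cytosol. It read 4.11, 4.87, 4.20 and 3.68 in FVB Nx and 2.55, 3.05, 2.46 and 2.46 in B6 Nx, and 2.46 to 2.48 in FVB sham and 2.20 to 2.46 in B6 sham. FVB Nx did not overlap any other group, and the difference was 1.52 ± 0.17 (adjusted p = 1.07e-07), with both sham groups at the floor. The receptor subunits Ifnar1 (0.15 ± 0.20) and Ifnar2 (0.21 ± 0.13) did not pass, nor did Sting1, the partner of Cgas (0.98 ± 0.44, adjusted p = 0.214). Without FVB Nx mouse 5 the list held 2 higher genes, and 0 with the filter at the 60th percentile.

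Relatives of the interferon list were also among the higher genes. In the Ifi200 and Schlafen families 8 of 11 measured genes were higher in FVB (72.7%, against 2.27% of all genes tested) and 0 lower (median 1.27). Slfn4, a Schlafen gene of myeloid cells that interferon induces, had the highest difference of all genes named by the rule. It read 9.64, 8.93, 7.53 and 8.41 in FVB Nx and 2.98, 4.86, 2.93 and 2.22 in B6 Nx, and 2.20, 2.21, 2.21 and 2.24 in FVB sham and 2.21, 3.29, 3.26 and 2.21 in B6 sham. FVB Nx stood clear of the rest, and the difference of 5.90 ± 0.44 (adjusted p = 4.67e-12) can be larger because FVB sham lay at the floor. Ifi204, a DNA-binding member, was 2.65 ± 0.53 (adjusted p = 0.00163) and Slfn8 2.42 ± 0.40 (adjusted p = 1.1e-04).

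Some members of the Ifi200 family already differed between the strains in sham. Ifi202b read 9.37 to 10.33 in FVB Nx and 3.62 to 6.05 in FVB sham, but 2.20 to 2.21 on all 8 B6 arrays. Its difference of 4.49 ± 0.55 (adjusted p = 4.36e-07) therefore rests on FVB alone. Mndal went the other way in sham, with 2.59 to 3.29 in FVB and 9.23 to 9.42 in B6, against 5.77 on all 4 FVB Nx arrays and 9.84 to 10.22 in B6 Nx, a difference of 2.28 ± 0.36 (adjusted p = 6.41e-05). The repeated 5.77 counts as a floor, so the true difference can be smaller. Another probe set of Mndal lay at -0.48, and the mean over its probe sets was 0.90 ± 0.24 (adjusted p = 0.0239). For Ifi209 the difference was 3.91 ± 0.48 (adjusted p = 3.87e-07), but another probe set of the gene passed in the opposite direction at -1.56, and the mean of its probe sets had an adjusted p of 0.0749. Genes of this family are near copies of each other, and which of them a probe set reads was not tested.

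GTPases that interferon gamma induces all lay above 0, but few passed. Of 10 measured (median 1.25) 2 were higher (20%, against 2.27% of all genes tested) and 0 lower. Gbp3 was 1.65 ± 0.36 (adjusted p = 0.00432), a call lost with only the arrays of the days compared (adjusted p = 0.0693), and Gbp2 was 1.73 ± 0.52 (adjusted p = 0.0445). The sham animals of FVB were spread here: Gbp2 read 8.58, 10.55, 11.22 and 8.93 in them, high in mice 2 and 4, against 8.62 to 8.69 in B6 sham. Without FVB sham mouse 4 the count was 4, and Gbp2 lost its call without any of B6 Nx mice 3, 5 and 9, B6 sham mice 1, 2, 4 and 5, FVB Nx mice 2 and 4 or FVB sham mice 1 and 5, with only the arrays of the days compared, with the mean of its probe sets or with no filter on low values (adjusted p = 0.0573 to 0.253). Of 12 measured genes of MHC class I and antigen processing 0 passed (median 0.30; limma; 3 of 12 at an unadjusted p under 0.05), and H2-K1 and H2-D1 lay at -0.30 and -0.43.

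Several chemokines that draw monocytes and eosinophils were higher in FVB. Of 14 measured CC chemokines and receptors 6 passed, all higher (42.9%, against 2.27% of all genes tested), and the median was 1.95. Ccl8, a ligand for monocytes, read 10.67, 11.93, 11.26 and 10.86 in FVB Nx and 7.79, 8.14, 8.27 and 9.87 in B6 Nx. In sham it read 2.61, 3.51, 4.14 and 5.78 in FVB sham and 6.18, 4.41, 6.21 and 6.03 in B6 sham. FVB Nx lay above B6 Nx without overlap and FVB sham largely below B6 sham, which gave 4.36 ± 0.96 (adjusted p = 0.00429). Ccl3 was 2.73 ± 0.49 (adjusted p = 3.59e-04) and Ccl7 2.51 ± 0.51 (adjusted p = 0.00181), each with both sham groups at the floor. Ccl11, which draws eosinophils, was 2.91 ± 0.65 (adjusted p = 0.00532) with FVB sham at the floor. Ccl6 was 2.80 ± 0.83 (adjusted p = 0.0441), but its call was lost without any of B6 Nx mice 3 and 9, B6 sham mice 1, 2, 4 and 5, FVB Nx mice 1, 2 and 4 or FVB sham mice 1, 2 and 4, with only the arrays of the days compared, with the mean of its probe sets or with no filter on low values (adjusted p = 0.0584 to 0.173). Ccl2, the main monocyte attractant, was 1.82 ± 0.70 (adjusted p = 0.129) and did not pass, and the receptor Ccr2 lay at -0.093.

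Among the CXC chemokines the 1 call was a lower one. Of 15 measured, 0 were higher (3 at an unadjusted p under 0.05 with limma). The 1 lower gene was 6.67%, against 2.14% of all genes tested, and the median was 0.21. The lower one was Cxcl5, made by epithelia to draw neutrophils, which read 7.22, 6.86, 5.53 and 5.92 in FVB Nx and 7.81, 7.57, 7.91 and 8.28 in B6 Nx and 2.20 on all 8 sham arrays. FVB Nx lay below B6 Nx without overlap, a difference of -1.51 ± 0.42 (adjusted p = 0.0304). This call was lost without any of B6 Nx mouse 9, B6 sham mouse 1 or FVB Nx mouse 4 or with only the arrays of the days compared (adjusted p = 0.0508 to 0.0798). Of 8 measured neutrophil genes 0 passed (median 0.93; limma; 1 of 8 at an unadjusted p under 0.05), with S100a8 at 1.01 ± 1.37 and S100a9 at 1.42 ± 1.40.

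Macrophage genes lay mostly above 0. Of 32 measured, 4 were higher (12.5%, against 2.27% of all genes tested) and 0 lower, 30 were positive and the median was 1.23. Ms4a4c, a membrane protein of myeloid cells, read 9.22, 8.38, 8.13 and 8.27 in FVB Nx and 4.46, 4.61, 3.39 and 4.96 in B6 Nx, and 2.25, 2.36, 2.49 and 2.33 in FVB sham and 2.35, 3.43, 2.74 and 2.67 in B6 sham. FVB Nx stood far above the other groups, with a difference of 4.58 ± 0.60 (adjusted p = 1.71e-06). Ms4a7 was 2.43 ± 0.58 (adjusted p = 0.00879), Fcer1g, a signalling chain of Fc receptors, 1.53 ± 0.45 (adjusted p = 0.0415), and the scavenger receptor Msr1 2.48 ± 0.65 (adjusted p = 0.0201). Both sham groups of Msr1 lay at the floor, so its true difference can be larger or smaller. The Fcer1g call was lost without any of B6 Nx mice 3 and 9, B6 sham mice 1, 2, 4 and 5, FVB Nx mice 1 and 2 or FVB sham mice 1 and 2, with only the arrays of the days compared or with no filter on low values (adjusted p = 0.0565 to 0.117). General macrophage genes did not pass: Adgre1 was 1.41 ± 0.47, Cd68 1.11 ± 0.70, C1qa 0.97 ± 0.41 and Csf1r 0.15 ± 0.25. The number of higher members was 2 without FVB Nx mouse 2 or without B6 Nx mouse 9 and 7 without FVB Nx mouse 5, and Msr1 lost its call without any of B6 Nx mouse 9 or FVB Nx mouse 2 (adjusted p = 0.0611 to 0.0696). In whole-kidney RNA, fewer or more cells of a type and less or more RNA per cell cannot be told apart.

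Other leucocyte genes with high differences were named by rank. Pik3ap1, an adaptor for PI3 kinase in B and myeloid cells, read 8.81, 9.32, 8.60 and 8.48 in FVB Nx and 4.42, 3.85, 3.03 and 3.03 in B6 Nx, with 2.92 to 5.32 in FVB sham and 2.50 to 2.90 in B6 sham. FVB Nx did not overlap any other group, and the difference was 4.21 ± 0.54 (adjusted p = 1.35e-06). Clec10a, a lectin of macrophages and dendritic cells, was 3.67 ± 0.71 (adjusted p = 0.00104), Ms4a4d 3.85 ± 0.56 (adjusted p = 1.29e-05) and Ear3, a ribonuclease of the eosinophil-associated family, 3.96 ± 0.96 (adjusted p = 0.0113). With both sham groups at the floor, the true difference of Ear3 can be larger or smaller. Hal, a histidine-degrading enzyme, read 5.38 to 6.25 in FVB Nx and 2.20 to 2.23 on the other 12 arrays, 3.51 ± 0.46 (adjusted p = 1.85e-06). F13a1, the clotting factor chain of macrophages and platelets, was 3.79 ± 1.10 (adjusted p = 0.0378), with FVB sham at 2.63, 2.63, 3.27 and 7.84. Its mouse 5 stood apart, and the call was lost without any of B6 Nx mice 3 and 9, B6 sham mice 1, 4 and 5, FVB Nx mice 2 and 4 or FVB sham mice 1, 2 and 4, with only the arrays of the days compared or with no filter on low values (adjusted p = 0.059 to 0.165). The lymphocyte genes Gzma, a granule protease, and Klrk1, an NK receptor, were 1.97 ± 0.33 (adjusted p = 1.01e-04) and 1.97 ± 0.29 (adjusted p = 1.26e-05), with B6 Nx at the floor in both. For Klrk1 both sham groups lay at the floor too, so its true difference can be larger or smaller. The other 7 of 9 measured T and NK genes did not pass. The Gzma call was lost with only the arrays of the days compared (adjusted p = 0.0681).

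Nearly all matrix genes lay above 0, and a few passed. Of 28 measured, 27 lay above 0 with a median of 0.71, and 3 passed, all higher (10.7%, against 2.27% of all genes tested). Col1a1, the main fibrillar collagen chain, read 12.38, 12.48, 12.17 and 11.87 in FVB Nx and 11.40, 11.73, 11.33 and 12.24 in B6 Nx, with 4.25, 5.42, 5.68 and 7.02 in FVB sham and 7.13, 7.26, 7.83 and 7.70 in B6 sham. After Nx the strains overlapped, FVB from 11.87 to 12.48 and B6 from 11.33 to 12.24, while FVB sham lay below B6 sham, and the difference was 2.44 ± 0.60 (adjusted p = 0.0115). Col5a2 had the same shape, at 6.37 to 8.05 in FVB sham and 9.55 to 10.09 in B6 sham, and 3.16 ± 0.52 (adjusted p = 8.58e-05). Dcn, a small proteoglycan of collagen fibrils, was 1.25 ± 0.36 (adjusted p = 0.0368). FVB sham mouse 5 was high in it (11.8 against 10.7 to 10.9). Without that mouse 7 matrix genes passed, and without FVB Nx mouse 5 or B6 Nx mouse 11 the count was 5. Dcn lost its call without any of B6 Nx mice 3 and 9, B6 sham mice 1, 4 and 5, FVB Nx mice 1, 2 and 4 or FVB sham mice 1, 2 and 4, with only the arrays of the days compared, with the mean of its probe sets or with no filter on low values (adjusted p = 0.0515 to 0.114).

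Acute phase genes passed in both directions. Of 14 measured, 2 were higher (14.3%, against 2.27% of all genes tested) and 1 lower (7.14%, against 2.14%). Saa3, the serum amyloid A of local inflammation, read 11.24, 11.70, 9.86 and 9.29 in FVB Nx and 10.29, 10.67, 8.23 and 8.74 in B6 Nx, which overlap. The sham values were 3.54, 4.69, 3.58 and 8.72 in FVB sham and 10.40, 8.72, 9.46 and 9.78 in B6 sham, low in 3 of 4 FVB animals. The difference was 5.49 ± 1.34 (adjusted p = 0.0113), and the call was lost with only the arrays of the days compared (adjusted p = 0.0557). Cp, the copper carrier ceruloplasmin, was 1.07 ± 0.24 (adjusted p = 0.00488), a call lost with the mean of its probe sets (adjusted p = 0.0759). The fibrinogen chain Fga was -2.33 ± 0.50 (adjusted p = 0.00326), and Fgb (-3.02 ± 0.98) and Fgg (-1.76 ± 0.61) did not pass. Without B6 Nx mouse 5 the list held 2 lower genes.

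Cell division genes passed in both directions, in numbers too small to speak of the group. Of 33 measured genes of the kinetochore and mitosis, 29 lay below 0 and the median was -0.55, and 2 passed as lower (6.06%, against 2.14% of all genes) and 1 as higher (3.03%, against 2.27%). Nuf2, which links the kinetochore to spindle microtubules, read 2.30, 2.39, 2.78 and 2.95 in FVB Nx and 5.98, 6.06, 5.99 and 5.83 in B6 Nx. The sham values were 2.21, 2.21, 2.21 and 2.21 in FVB sham and 2.21, 2.60, 2.21 and 2.65 in B6 sham. B6 Nx stood far above the other 3 groups, and FVB Nx stayed within 2.30 to 2.95. The difference was -3.15 ± 0.36 (adjusted p = 1.07e-07). Bub1b, a checkpoint kinase, was -1.12 ± 0.27 (adjusted p = 0.00984), with both sham groups at the floor, and its call was lost with only the arrays of the days compared (adjusted p = 0.131). The mean of its probe sets gave -0.63 ± 0.16 (adjusted p = 0.0156). Ckap2l, a spindle protein outside the list, read 3.71, 3.90, 4.22 and 3.13 in FVB Nx and 5.71, 6.30, 5.66 and 5.23 in B6 Nx and 2.48 on all 8 sham arrays but B6 sham mouse 1, where it read 2.485, a difference of -1.99 ± 0.19 (adjusted p = 9.95e-10). With the mean of its probe sets it was -1.32 ± 0.23 (adjusted p = 1.81e-04).

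Most mitosis genes did not pass, Top2a at -0.10 ± 0.53, Birc5 at -0.38 ± 0.58, Cdk1 at -0.91 ± 0.46 and Ccnb2 at -1.23 ± 0.59. The count of lower members was 5 without FVB Nx mouse 4 and 6 with only the arrays of day 2. Kif23 was higher at 1.41 ± 0.32 (adjusted p = 0.00661), and its other probe set lay at -0.78. The Kif23 call was lost with only the arrays of the days compared or with the mean of its probe sets (adjusted p = 0.0517 to 0.577). In DNA synthesis and repair, 3 of 29 measured genes were lower (10.3%, against 2.14% of all genes tested). There 1 was higher (3.45%, against 2.27%), and the median was -0.19. Tk1, thymidine kinase, was -2.01 ± 0.55 (adjusted p = 0.0272), Rrm2, a subunit of ribonucleotide reductase, -1.25 ± 0.37 (adjusted p = 0.0455) and Pole -0.87 ± 0.24 (adjusted p = 0.0238). The Rrm2 call was lost without any of B6 Nx mice 3 and 11, B6 sham mice 1, 2 and 4, FVB Nx mice 2 and 5 or FVB sham mice 1, 2, 4 and 5, with only the arrays of the days compared or with no filter on low values (adjusted p = 0.0524 to 0.104). The Pole call was lost without any of B6 Nx mice 3 and 5, B6 sham mouse 1 or FVB Nx mouse 2 or with only the arrays of the days compared (adjusted p = 0.0543 to 0.0999), and that of Tk1 without any of B6 Nx mouse 3, B6 sham mouse 1, FVB Nx mouse 2 or FVB sham mice 4 and 5 or with only the arrays of the days compared (adjusted p = 0.0556 to 0.0706). The count of lower members was 0 without B6 Nx mouse 3, FVB Nx mouse 2 or B6 sham mouse 1, and 1 without FVB sham mouse 4 or 5. The helicase subunit Mcm6 was 1.60 ± 0.42 (adjusted p = 0.0202), with sham at 4.71 to 6.53 in FVB and 8.15 to 8.75 in B6. It lost its call without FVB sham mouse 1 or with only the arrays of the days compared (adjusted p = 0.0662 to 0.0729).

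**Figure D3:**
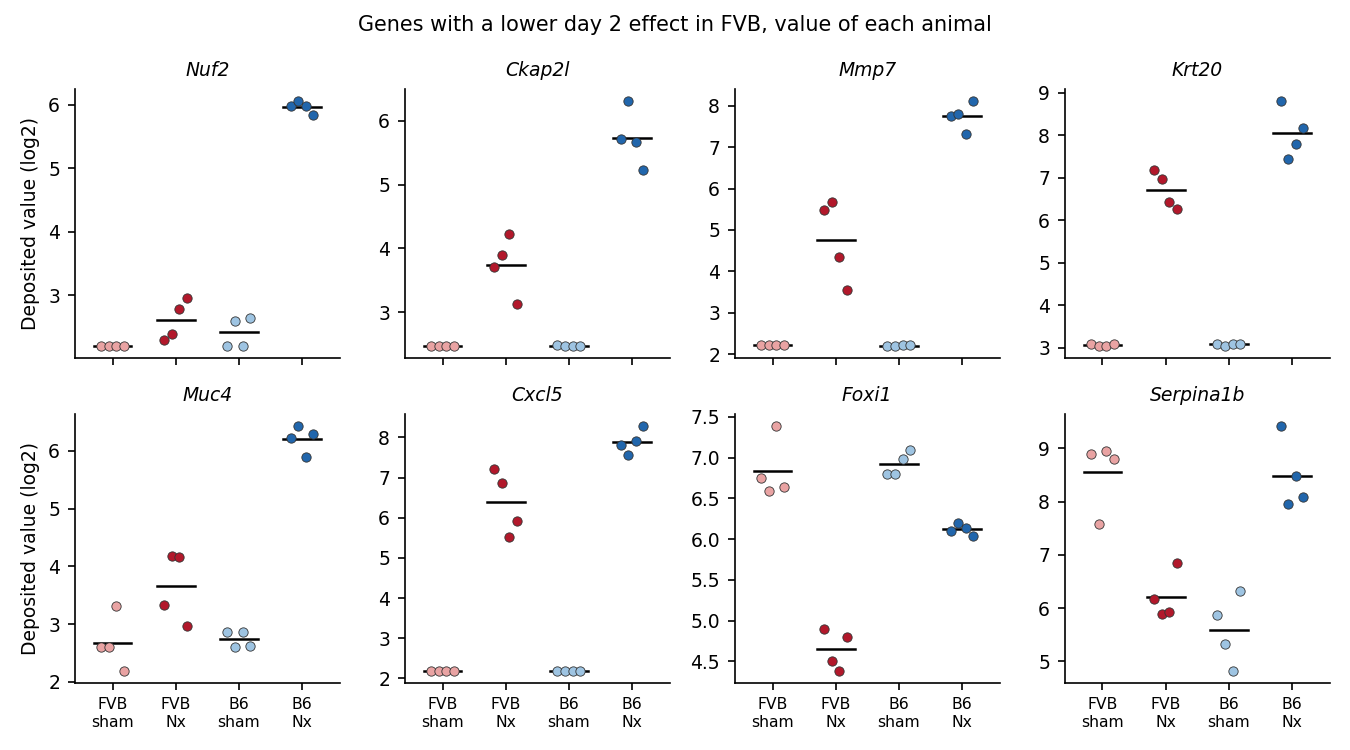
Deposited log2 values (y axis) of 8 genes lower in FVB, 1 point per animal, in FVB sham, FVB Nx, B6 sham and B6 Nx at day 2 (x axis, 4 animals each); the bar is the group mean. Nuf2 reads 2.30 to 2.95 in FVB Nx and 5.83 to 6.06 in B6 Nx, and Serpina1b is high in FVB sham and in B6 Nx.

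The tubular injury genes as a group lay near the middle, yet a pair of them were lower in FVB. Of 24 measured, 2 were lower (8.33%, against 2.14% of all genes tested) and 0 higher, and the median was 0.19. Mmp7, a protease that injured tubules secrete, read 5.49, 5.67, 4.34 and 3.54 in FVB Nx and 7.74, 7.81, 7.33 and 8.11 in B6 Nx and 2.20 to 2.21 in all 8 sham animals. FVB Nx lay below B6 Nx without overlap, a difference of -2.99 ± 0.53 (adjusted p = 2.93e-04). Krt20, a keratin of injured tubule cells, read 7.18, 6.96, 6.43 and 6.27 in FVB Nx and 8.81, 7.44, 7.80 and 8.18 in B6 Nx, and 3.09, 3.05, 3.05 and 3.09 in FVB sham and 3.09, 3.05, 3.09 and 3.09 in B6 sham. The strains did not overlap after Nx, and the difference was -1.34 ± 0.30 (adjusted p = 0.00606), a call lost with only the arrays of the days compared (adjusted p = 0.0577). The membrane mucin Muc4, outside the list, read 3.33, 4.18, 4.16 and 2.97 in FVB Nx and 6.22, 6.43, 5.89 and 6.29 in B6 Nx, with 2.20 to 3.32 in FVB sham and 2.60 to 2.87 in B6 sham, and -2.48 ± 0.40 (adjusted p = 5.88e-05). Other injury genes did not pass: Lcn2 was 1.34 ± 0.62, Cd44 1.15 ± 0.65, Krt19 0.49 ± 0.54 and Vcam1 0.42 ± 0.31.

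Some targets of Nrf2, the factor that answers oxidants, were lower in FVB. Of 18 measured, 4 were lower (22.2%, against 2.14% of all genes tested), 1 was higher (5.56%, against 2.27%), and the median was -0.30. Txnrd1, thioredoxin reductase, read 11.12, 10.73, 11.09 and 10.57 in FVB Nx and 11.38, 11.52, 11.45 and 11.38 in B6 Nx, with 10.24 to 10.53 in FVB sham and 10.22 to 10.37 in B6 sham. FVB Nx lay below B6 Nx throughout, and the difference was -0.57 ± 0.13 (adjusted p = 0.0059). The call was lost with only the arrays of the days compared or with the mean of its probe sets (adjusted p = 0.0616 to 0.261). The glutathione transferases Gstm3 and Gsta3 were -0.78 ± 0.15 (adjusted p = 6.45e-04) and -0.92 ± 0.23 (adjusted p = 0.0144), and the carbonyl reductase Cbr3 -1.97 ± 0.55 (adjusted p = 0.029). Gstm3 lost its call with only the arrays of the days compared (adjusted p = 0.0719), Gsta3 without FVB Nx mouse 2 (adjusted p = 0.0533) and Cbr3 without any of B6 sham mouse 4, FVB Nx mice 2 and 5 or FVB sham mice 4 and 5 or with array weights (adjusted p = 0.0509 to 0.0612). Gsta4 was higher at 1.02 ± 0.24 (adjusted p = 0.00693). Nqo1, a much used reporter of this factor, was -0.81 ± 0.30 (adjusted p = 0.111) and did not pass. Without FVB Nx mouse 2 the number of lower members was 2.

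A few genes of the respiratory chain were lower in FVB, by small amounts. All 34 measured lay below 0, with a median of -0.22, and 5 passed as lower (14.7%, against 2.14% of all genes tested). At an unadjusted p under 0.05 (limma) 28 of the 34 were lower and 0 higher, beside 2503 of the 13174 genes tested in either direction. Uqcrc1, a core subunit of complex III, read 11.99, 11.85, 12.02 and 12.25 in FVB Nx and 12.33, 12.37, 12.41 and 12.04 in B6 Nx, and 12.71, 12.59, 12.82 and 12.73 in FVB sham and 12.28, 12.37, 12.55 and 12.52 in B6 sham. FVB Nx was the lowest group although it overlapped B6 Nx, where mouse 11 read 12.04, and FVB sham was the highest. The difference was -0.54 ± 0.13 (adjusted p = 0.0114), a call lost with only the arrays of the days compared (adjusted p = 0.0521). Cyc1 was -0.38 ± 0.099 (adjusted p = 0.019) and Ndufa9 -0.28 ± 0.074 (adjusted p = 0.0201). The number that passed turned on single animals: it was 14 without B6 Nx mouse 11, 12 without FVB Nx mouse 1 and 8 without FVB Nx mouse 5. It was 3 without B6 Nx mouse 3 or 5 or B6 sham mouse 2, 2 without B6 Nx mouse 9, B6 sham mouse 1 or FVB sham mouse 4, and 1 without FVB Nx mouse 2 or with only the arrays of day 2. Cyc1 lost its call without FVB Nx mouse 2 (adjusted p = 0.066) and Ndufa9 without any of B6 Nx mouse 9, B6 sham mouse 1, FVB Nx mouse 2 or FVB sham mouse 4, with only the arrays of the days compared or with quantile normalisation (adjusted p = 0.0509 to 0.0928).

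Among transport genes of the tubule segments, few passed. The medians were -0.20 for 31 proximal transport genes, -0.23 for 19 of the loop and distal tubule and -0.30 for 21 of the collecting duct, and 1 of each passed, as lower. That was 3.23%, 5.26% and 4.76% of them, against 2.14% of all genes tested. Foxi1, the factor that specifies intercalated cells of the collecting duct, read 4.89, 4.50, 4.39 and 4.80 in FVB Nx and 6.10, 6.20, 6.14 and 6.04 in B6 Nx. In sham it read 6.75, 6.59, 7.39 and 6.64 in FVB sham and 6.80, 6.80, 6.98 and 7.09 in B6 sham. FVB Nx lay below all other animals, and the difference was -1.40 ± 0.35 (adjusted p = 0.0133). Genes of intercalated cells in the list were Atp6v1b1 at -0.46 ± 0.21, Slc4a1 at -0.17 ± 0.36 and Slc26a4 at -0.59 ± 0.29, and none of these 3 passed. Wnk4, a kinase that regulates salt transport, was -0.68 ± 0.16 (adjusted p = 0.00836), and the organic cation transporter Slc22a2 -0.53 ± 0.16 (adjusted p = 0.0451). The Slc22a2 call was lost without any of B6 Nx mice 3, 5 and 9, B6 sham mice 1, 2 and 4, FVB Nx mice 2 and 4 or FVB sham mice 2, 4 and 5, with only the arrays of the days compared, with no filter on low values, with arrays shifted to one median or with no intensity trend (adjusted p = 0.05003 to 0.214), and without FVB Nx mouse 5 or B6 Nx mouse 11 the proximal list had 5 and 4 lower genes. The collecting duct and distal lists each had 2 without B6 Nx mouse 11, as did the distal list without FVB Nx mouse 5.

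Several of the lowest differences belonged to genes whose level in FVB sham lay above that in B6 sham. Serpina1b, an alpha-1 antitrypsin gene, read 6.16, 5.89, 5.93 and 6.84 in FVB Nx and 9.42, 7.95, 8.47 and 8.10 in B6 Nx. In sham it read 8.89, 7.58, 8.94 and 8.80 in FVB sham and 5.87, 5.32, 4.83 and 6.32 in B6 sham. The order of the strains turned between sham and Nx, with no overlap in either, and the difference was -5.25 ± 0.75 (adjusted p = 1.08e-05). Serpina6, which carries corticosteroids in blood, read 2.73, 2.46, 3.77 and 4.66 in FVB Nx, 6.76 to 7.38 in FVB sham and 2.20 on all 8 B6 arrays, -3.76 ± 0.52 (adjusted p = 4.57e-06). Il5ra, the receptor chain for interleukin 5, read 6.00 to 6.96 in FVB sham and 3.11 to 3.45, 2.87 to 3.11 and 2.77 to 3.52 in FVB Nx, B6 sham and B6 Nx, -3.25 ± 0.31 (adjusted p = 1.4e-09). The sulfate transporter Slc13a4 was -2.86 ± 0.37 (adjusted p = 1.2e-06). Ubxn10 was -2.65 ± 0.53 (adjusted p = 0.00159), and -1.61 ± 0.30 (adjusted p = 5.37e-04) with the mean of its probe sets. Serpina6 lay at the lowest values on all B6 arrays, where no fall could be read. Ubxn10 repeated the same number in B6 sham mice 1, 4 and 5, which counts as a floor. Il5ra read the same 3.11 in FVB Nx mice 1, 2 and 4 and in B6 sham mouse 1, and B6 sham mice 2 and 5 shared 2.87. FVB Nx thus counts as at the floor for Il5ra, and its true difference can lie further below 0. Adgra1 (-3.46 ± 0.59, adjusted p = 1.64e-04), Pcdhb9 (-2.45 ± 0.46, adjusted p = 6.6e-04) and Mtarc1 (-2.97 ± 0.84, adjusted p = 0.0323) complete the lowest genes, with both sham groups of Adgra1 and both FVB groups of Pcdhb9 at the floor. With the mean of its probe sets Adgra1 was -2.15 ± 0.34 (adjusted p = 5.5e-05). Mtarc1 lost its call without any of B6 Nx mouse 3, B6 sham mice 1 and 5, FVB Nx mice 2 and 4 or FVB sham mice 1 and 5, with no filter on low values or with array weights (adjusted p = 0.0517 to 0.0744).

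How often such sham gaps went with the day 2 difference was counted in other animals, the 16 sham mice of days 28 and 53, which take no part in the day 2 contrast. Of the 299 genes higher in FVB at day 2, FVB sham was below B6 sham there for 101 (33.8%) and above for 12 (4.01%), at adjusted p under 0.05 with limma. Of the 282 lower genes, FVB sham was above for 109 (38.7%) and below for 24 (8.51%). Among the 12593 genes that did not pass at day 2, the shares were 12.3% above and 11.6% below. Mndal had a gap of -6.65 ± 0.18 , Mcm6 of -4.24 ± 0.21 and Col5a2 of -3.44 ± 0.26, and Serpina1b of 6.63 ± 0.38 and Il5ra of 2.88 ± 0.15. Of the 34 interferon genes, FVB sham was below for 13 and above for 0, with Ifih1 at -1.56 ± 0.12 and Ifit1 at -0.86 ± 0.27. Stat2 lay at 0.066 ± 0.069 and did not pass, and Irf7 and Slfn4, both within 0.004 of 0, lay at the floor in FVB sham of day 2. The probe sets read the alleles of both strains, and whether these hybridise alike was not tested.

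**Figure D4:**
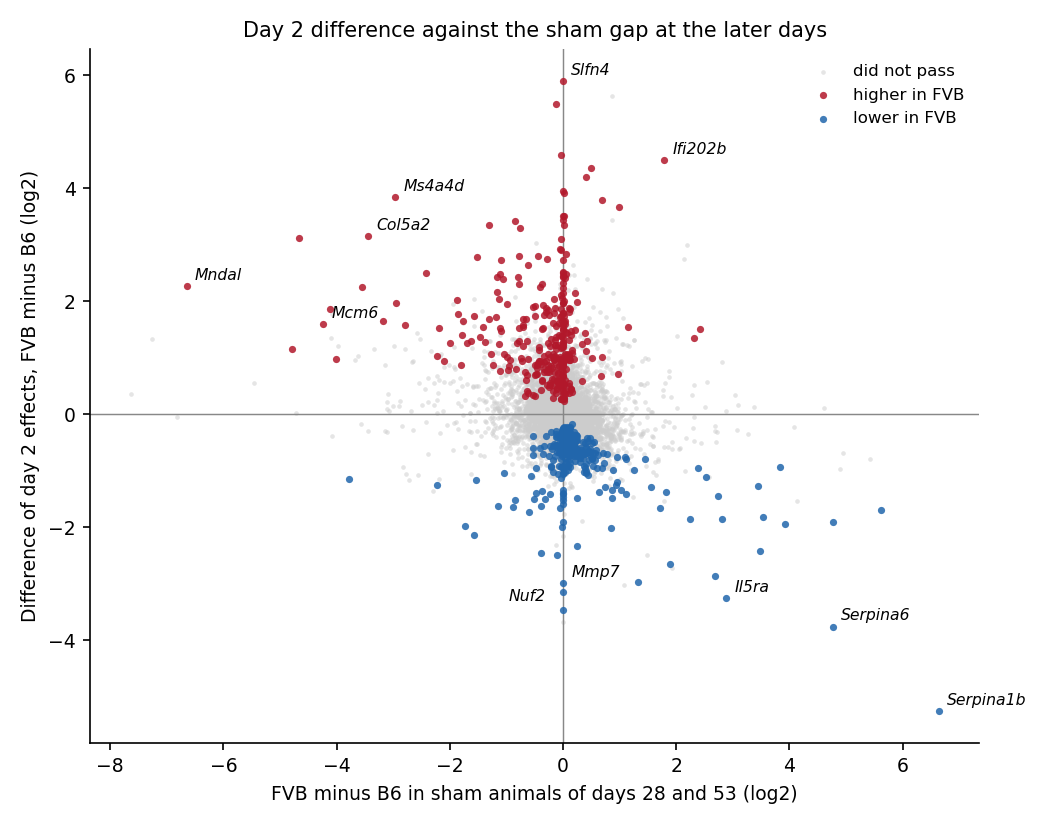
Strain difference of the day 2 effect (y axis, log2) against FVB minus B6 in the sham animals of days 28 and 53 (x axis, log2), 1 point per gene, red where higher, blue where lower and grey where not passed at day 2. Slfn4 sits at 5.90 with a sham gap of -0.0019, while Mndal (sham gap -6.65) and Serpina1b (6.63) lie at the ends.

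The day 2 difference was then tested against that of day 28, from other animals. It exceeded the day 28 value for 65 genes (0.493% of those tested) and fell below it for 18 (0.137%). The interferon list held 15 of the 65, and its median was -0.15 at day 28. For Irf7 the strain difference was -0.066 at day 28, and day 2 exceeded it by 2.58 ± 0.30 (adjusted p = 6.53e-07). Stat2 lay at -0.17 and the excess was 1.61 ± 0.19 (adjusted p = 1.47e-06). The highest excess was that of Slfn4, at 5.90 ± 0.62 (adjusted p = 1.45e-07), then Cilp, a cartilage and scar matrix protein, at 5.75 ± 1.29 (adjusted p = 0.0186), Ms4a4c at 5.52 ± 0.85 (adjusted p = 1.19e-04) and Ccl8 at 5.51 ± 1.35 (adjusted p = 0.0416). Below day 28 lay Slc26a7, an anion exchanger of intercalated and loop cells (-2.13 ± 0.51, adjusted p = 0.0337), Nuf2 (-2.05 ± 0.51, adjusted p = 0.0438), Ckap2l (-2.04 ± 0.26, adjusted p = 4.78e-06) and Akr1c21, an aldo-keto reductase (-1.66 ± 0.35, adjusted p = 0.00903). Cilp, Slc26a7 and Akr1c21 did not pass at day 2 itself, at 2.20 ± 0.92, -1.17 ± 0.36 and -0.16 ± 0.25. Calls against day 28 were often close to the threshold. That of Ccl8 was lost without any of B6 Nx mice 3, 5 and 9, B6 sham mice 1, 4 and 5, FVB Nx mice 2 and 4 or FVB sham mice 1, 2 and 4, with only the arrays of the days compared or with no filter on low values (adjusted p = 0.0537 to 0.13). That of Nuf2 was lost without any of B6 Nx mice 3, 5 and 9, B6 sham mice 1 and 4, FVB Nx mice 1 and 2 or FVB sham mice 1, 2, 4 and 5, with only the arrays of the days compared, with no filter on low values or with the stricter filter (adjusted p = 0.0542 to 0.174). The Slc26a7 call was lost without any of B6 Nx mice 5 and 9, B6 sham mice 2 and 5, FVB Nx mice 2 and 4 or FVB sham mouse 1 or with no filter on low values (adjusted p = 0.0516 to 0.0709) and the Cilp call with only the arrays of the days compared (adjusted p = 0.0744). The total count of 83 was 165 without FVB Nx mouse 5 of day 2 and 131 without B6 Nx mouse 11.

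**Figure D5:**
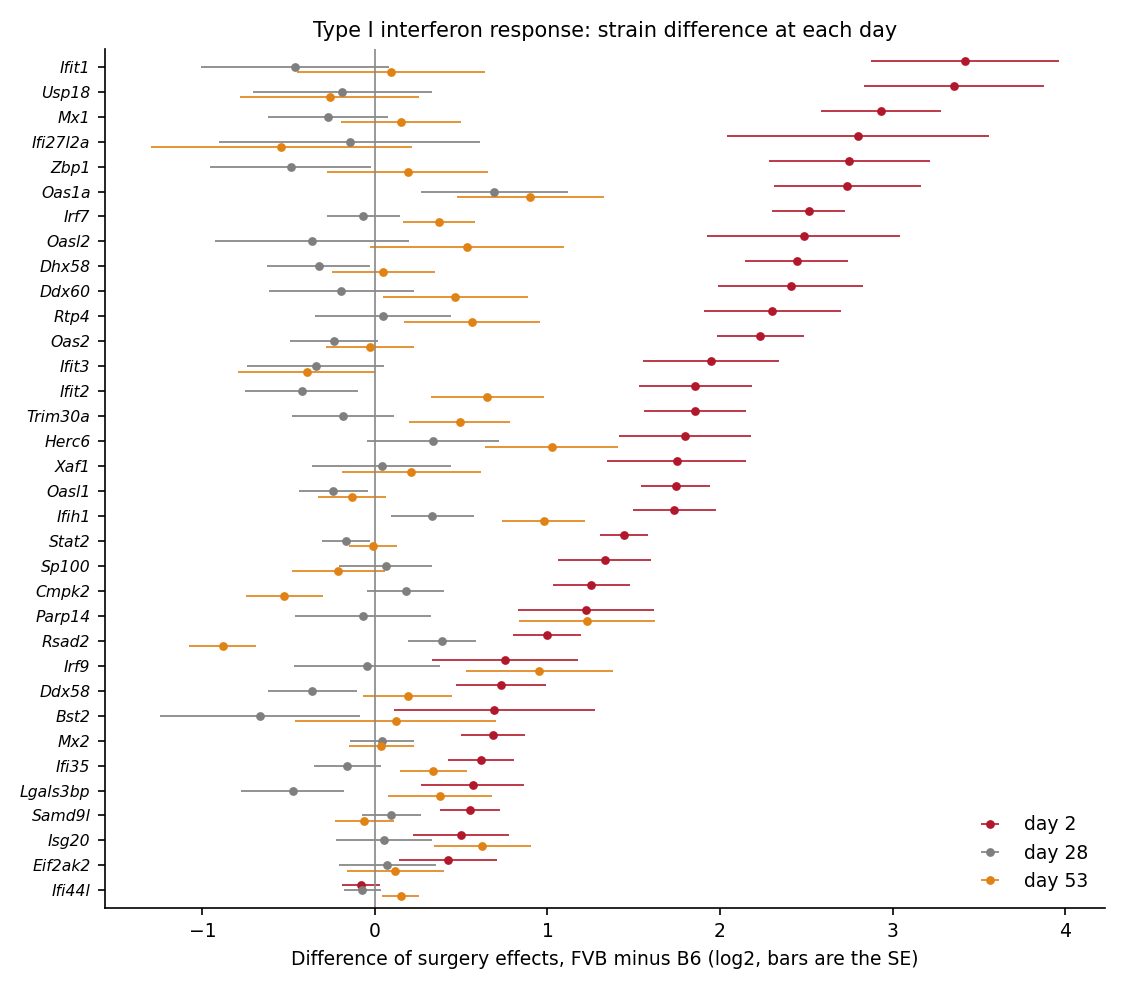
Strain difference of the surgery effect (x axis, log2, FVB minus B6; bars are the SE) for the 34 measured interferon genes (rows) at days 2, 28 and 53, from different animals. The day 2 points lie to the right, with a median of 1.75, and those of days 28 and 53 around 0, with medians of -0.15 and 0.17.

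Against day 53 the strain difference had moved more widely. Day 2 exceeded day 53 for 439 genes (3.33%) and fell below it for 485 (3.68%). The interferon list held 17 of the 439 and 0 of the 485, with a median of 0.17 at day 53. Slfn4 differed by 5.86 ± 0.62 (adjusted p = 5.94e-08), Irf7 by 2.14 ± 0.30 (adjusted p = 1.16e-05) and Cgas by 1.04 ± 0.24 (adjusted p = 0.00606). Of the macrophage and CC chemokine genes, 1 of 32 and 2 of 14 exceeded day 53 (against 3.33% of all genes), 2 and 0 fell below it, and their medians at day 53 were 1.87 and 2.18, beside 1.23 and 1.95 at day 2. Ms4a7, for one, lay at 2.46 at day 53, and Pik3ap1 at 4.28.

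Among the genes below day 53 were 15 of 33 mitosis genes, 13 of 29 DNA synthesis genes and 11 of 24 tubular injury genes. Of all genes tested, 3.68% fell below day 53. Krt20 went from -1.34 at day 2 to 4.70 at day 53, a change of -6.04 ± 0.43 (adjusted p = 5.34e-13). Mmp7 went from -2.99 to 1.55 (-4.53 ± 0.75, adjusted p = 1.63e-04), and the fibrinogen chains Fga and Fgb changed by -4.41 ± 0.71 (adjusted p = 1.08e-04) and -5.51 ± 1.39 (adjusted p = 0.011). The list medians at day 53 were 1.29 for mitosis and 1.56 for tubular injury. Nuf2 lay at -0.19 at day 53. Besides Slfn4, given above, the highest changes in the other direction were Adipoq, a hormone of fat cells (8.47 ± 2.42, adjusted p = 0.0251), Bhmt, a methyl transferase of methionine synthesis (4.75 ± 1.11, adjusted p = 0.00603), and Pvalb, the calcium-binding protein of the distal tubule (4.74 ± 1.02, adjusted p = 0.00314). None of these 3 passed at day 2. Of the 12 fat genes measured, 0 passed at day 2 (limma; 1 at an unadjusted p under 0.05), their median was 1.00, and their part in the Adipoq value was not tested.

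Over all genes that passed at day 2, the later days were compared by sign. Of the 299 higher genes, 160 (53.5%) were above 0 at day 28, where 45.7% of all genes were, and 254 (84.9%) at day 53, where 51.5% were. Of these 299, 4 also passed as higher at day 28 and 121 at day 53, and 0 and 4 passed as lower. Of the 282 lower genes, 177 (62.8%, against 54.1% of all genes) were below 0 at day 28 and 231 (81.9%, against 48.2%) at day 53. Among them 7 and 154 also passed as lower, and 0 and 6 as higher. Of all 13174 genes tested, 8 passed as higher and 9 as lower at day 28. At day 53 these numbers were 1874 and 1965, so far fewer genes of any kind passed at day 28. Day 2 exceeded day 28 for 64 and day 53 for 66 of the higher genes, and fell below them for 14 and 49 of the lower genes. Over all genes tested, day 2 exceeded these days for 0.493% and 3.33% and fell below them for 0.137% and 3.68%. The genes were picked by their day 2 values, which enter these contrasts too. That selection favours these directions, so the counts are descriptions only.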

How the data were processed

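The deposited values are on a log2 scale and were made by the authors from Affymetrix mouse expression arrays; the submitters' processing notes name MAS5, and how values were scaled and floored is not given in the sources used here. No further normalisation was applied. Of 45101 probe sets, 35890 were listed in the platform annotation, 34958 with 1 gene symbol, 932 with several and 9211 not listed. Probe sets above 2.28, the 40th percentile of all values, on at least 4 arrays were kept, and per gene the probe set with the highest mean, which left 13174 genes. 12 group means were fitted on all 48 arrays with limma 3.58.1 in R 4.3.3 (empirical Bayes with intensity trend), p-values were adjusted by Benjamini-Hochberg over all genes, and the threshold was 0.05. The code was tested on simulated data. Promoter windows came from RefSeq. Named genes were the 12 highest and 12 lowest genes past the threshold (provisional gene models skipped), the best 3 by p of every list among those past it, and the 4 highest and 4 lowest past it in each contrast between days. Other list members named in the text were chosen after their values were seen. The gene lists and the comparison were chosen with earlier results of these data known. Alternatives covered filters, normalisation, covariates, blocks and each animal left out.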

Additional observations from a re-analysis of the deposited data

Results flagged for a closer look

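For 581 genes the effect of surgery at day 2 differed between the strains by the test of the difference itself, which is the subject of the report. That strain difference in turn differed from the one of day 28 for 83 genes and from the one of day 53 for 924 genes.

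Among the named genes, 238 groups of 4 animals were not at the floor and were searched for an animal that stood apart, that is, a gap to the nearest other animal, as a share of the group's range, above Dixon's limit for 4 values. This was met in 24 groups, and chance alone meets it in about 1 of 20. The log2 value of the animal that stood apart and the range of the other 3 are given for each. Above the rest of their group lay Bub1b in B6 Nx mouse 5 (5.60 against 4.49 to 4.65), Cgas in B6 Nx mouse 5 (3.05 against 2.46 to 2.55), Dcn in FVB sham mouse 5 (11.8 against 10.7 to 10.9), F13a1 in FVB sham mouse 5 (7.84 against 2.63 to 3.27), Gstm3 in FVB Nx mouse 1 (3.89 against 3.14 to 3.26), Gzma in FVB sham mouse 5 (3.01 against 2.29 to 2.31) and Gzma in B6 sham mouse 5 (2.99 against 2.29 to 2.32). Also above lay Ifi209 in B6 sham mouse 5 (3.04 against 2.63 to 2.66), Il5ra in B6 Nx mouse 3 (3.52 against 2.77 to 2.88), Ms4a7 in B6 sham mouse 5 (6.43 against 5.71 to 5.78), Oas2 in FVB sham mouse 1 (3.40 against 3.18 to 3.19), Pcdhb9 in B6 sham mouse 4 (3.72 against 2.53 to 2.70), Stat2 in FVB sham mouse 2 (3.87 against 3.23 to 3.24), Txnrd1 in FVB sham mouse 4 (10.5 against 10.2 to 10.3) and Wnk4 in FVB sham mouse 2 (10.9 against 10.8 to 10.8). Below the rest lay Acaa1a in B6 Nx mouse 5 (8.33 against 8.83 to 8.88), Ccl8 in B6 sham mouse 2 (4.41 against 6.03 to 6.21), Col5a2 in B6 sham mouse 2 (9.55 against 10 to 10.1), Cyp7b1 in FVB sham mouse 1 (4.93 against 5.19 to 5.23), Gsta4 in FVB Nx mouse 2 (10.7 against 11.3 to 11.4), Krt20 in B6 sham mouse 2 (3.05 against 3.09 to 3.09), Mcm6 in FVB sham mouse 1 (4.71 against 6.24 to 6.53), Serpina1b in FVB sham mouse 2 (7.58 against 8.80 to 8.94) and Slc13a4 in B6 Nx mouse 11 (4.91 against 5.75 to 5.87). FVB sham mouse 5 was the animal above the rest in Dcn, F13a1 and Gzma.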

How the results depend on the processing

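The total of 581 genes was within 1.5 times of itself under 11 of 12 alternatives that kept all animals of day 2 and the number ran from 465 (no filter on low values) to 808 (array weights) in these 11. Fitted on the 16 arrays of day 2 alone, 324 genes passed, 176 higher and 148 lower. Against day 28, 83 genes passed, 54 when only the arrays of both days were fitted, 48 with the stricter filter at the 60th percentile and 156 with array weights. Leaving out 1 animal of day 2 at a time gave 343 to 951 genes at day 2, 205 to 427 higher and 138 to 524 lower, 58 to 165 against day 28, 768 to 1181 against day 53, and 23 to 27 higher interferon genes. Shifting every array to one median gave 270 higher and 349 lower genes. Quantile normalisation gave 307 and 324. Of 64 named genes that passed, 31 passed under all 28 settings, 6 more in the 27 settings that tested them (the stricter filter leaves them out), and 0 changed sign under any. With mouse number within strain and day as a replicate block, 801 genes passed, 383 higher and 418 lower, and all 581 were among them. Deviations of same-numbered animals correlated at -0.002 to 0.127 in FVB and at 0.281 for the 1 number that B6 groups share. For animals of unlike numbers these values ran from -0.103 to 0.0811 in FVB and from -0.182 to 0.177 in B6. As the labels name no pairs, the numbers were not taken as pairs. Whether animals of the same number share a batch was not tested. The Gapdh covariate was chosen after seeing the data. With 4 arrays a group, their number limits the precision, and differences of genes near the floor are not well measured.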

Other observations

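The smaller groups below held at most 1 gene that passed in each direction. Over all genes tested, 2.27% were higher and 2.14% lower. Of 21 measured cytochrome P450 genes, Cyp7b1, an oxysterol hydroxylase, was higher in FVB at 2.17 ± 0.46 (adjusted p = 0.00324) and Cyp2d22 lower at -0.95 ± 0.28 (adjusted p = 0.0396). Each was 4.76% of the list. Cyp2d22 lost its call without any of B6 Nx mice 3 and 11, B6 sham mice 1, 4 and 5, FVB Nx mouse 2 or FVB sham mice 1 and 5, with only the arrays of the days compared, with no filter on low values or with array weights (adjusted p = 0.0545 to 0.109), and 2 genes of the list were lower without FVB Nx mouse 5 or B6 sham mouse 2. Among 20 metalloproteinase genes and inhibitors, 1 was higher and 1 lower (5% each). The higher one was Adamts15, which cleaves proteoglycans, at 1.31 ± 0.27 (adjusted p = 0.00242). That list held 3 higher genes without FVB Nx mouse 5 and 2 without B6 Nx mouse 5, B6 Nx mouse 11 or FVB sham mouse 5. Of 21 glucocorticoid and clock genes, the repressor Cry1 was -1.34 ± 0.38 (adjusted p = 0.0332) and the clock output factor Dbp 1.02 ± 0.26 (adjusted p = 0.0183). In each direction this was 4.76% of the list. Cry1 lost its call without any of B6 Nx mice 3 and 9, B6 sham mice 1 and 5, FVB Nx mouse 2 or FVB sham mice 1, 2 and 4 or with no filter on low values (adjusted p = 0.0517 to 0.0812), and Dbp without FVB sham mouse 1, with only the arrays of the days compared or with the mean of its probe sets (adjusted p = 0.0567 to 0.1). The list held 2 higher genes without B6 Nx mouse 5 and 2 in either direction without FVB sham mouse 5. The peroxisomal thiolase Acaa1a, the single call among 23 genes of fatty acid oxidation, was -0.77 ± 0.22 (adjusted p = 0.0344) and lost its call without any of B6 Nx mice 3, 9 and 11, B6 sham mice 1, 4 and 5, FVB Nx mice 2 and 4 or FVB sham mice 1, 2 and 5, with only the arrays of the days compared or with no filter on low values (adjusted p = 0.0501 to 0.112). The call was 4.35% of that list, whose median was -0.19, beside -0.0097 over all genes.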
